A study of Homo sapiens with 12 samples.

Results

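The HOX genes of the 4 human clusters were taken as every gene symbol that consists of HOX, a cluster letter from A to D and a paralogue number, and 39 of the 36433 symbols in the expression table met this rule. They were measured by RNA sequencing in HMEC-1, an established endothelial line from the small vessels of human skin. All 12 libraries came from cells transfected by lipofection at 50 nM and collected after 48 h. The mimic groups received a synthetic human miR-126, miR-143 or miR-150, which raises the amount of that microRNA in the cell, and the control group received a scrambled RNA with no intended target. Each group had 3 libraries, numbered 2 to 4. The study's title concerns disease of retinal vessels, whereas the model is 1 dermal line, and the labels do not say whether the libraries of a group came from separate cultures. P-values therefore cover the spread among the libraries at hand, part of which may be technical.

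HOX genes encode homeodomain transcription factors that specify position along the body axis, and they lie in clusters in an order that follows where and when they act. Genes of the same paralogue number in different clusters are the closest relatives, with low numbers acting towards the head and high numbers towards the tail and the distal limb. Adult endothelial cells keep a HOX pattern, in which HOXD3, HOXB3 and HOXA3 are known to favour vessel growth and migration, HOXA5 and HOXD10 to restrain it, and HOXA9 to support the expression of endothelial genes such as NOS3 and EPHB4.

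The sequences of the mimicked microRNAs bear on the HOX genes because HOXA9 has been described as a miR-126 target through a match in its homeobox. The mature 3p strands below come from RefSeq (GRCh38.p14), with the seed, bases 2 to 8, in capitals; the labels do not say which strand the mimics carried, and the 3p strand was assumed. The miR-126 sequence lies at 9:136670653-136670674 and that of miR-143 at 5:149428978-149428998, both on the plus strand of GRCh38.
hsa-miR-126-3p: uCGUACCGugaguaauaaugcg
hsa-miR-143-3p: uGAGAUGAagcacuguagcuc
The HOX transcripts below (GENCODE 29 on GRCh38, transcript strand) hold matches to these seeds, in capitals, and are shown as examples of a match in a coding sequence and in 3' UTRs; other HOX genes hold matches too. Matches to miR-150 were not analysed here.
HOXA9-201: ctcaccagggaccgcaGGTACGag
HOXD8-202: atctcagacgtcggttGGTACGtc
HOXA7-201: cctccgcaatgccctTCATCTCct
The HOXA9 match pairs with bases 2 to 7 of miR-126-3p and is followed by an A. It lies in the coding sequence of the last exon of HOXA9-201, at 7:27163710-27163715 on the minus strand. The same match lies in the 3' UTR of HOXA9-202 and in the noncoding transcripts HOXA9-203, HOXA9-204, HOXA9-205 and HOXA9-206. The HOXD8-202 match pairs with the same bases and lies in the 3' UTR, at 2:176132554-176132559 on the plus strand. The HOXA7-201 match pairs with bases 2 to 8 of miR-143-3p and lies in the 3' UTR on the minus strand, with its last 6 bases at 7:27153830-27153835.

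Matches of this kind were counted in all HOX genes and in all tested genes. With the longest coding transcript of each gene and its own strand searched, GGTACG occurred in the coding sequence of 3 of 39 HOX genes (HOXA5, HOXA9 and HOXD3), against 7.15% of 12587 tested genes, and in the 3' UTR of 0, against 3.65%. HOXD8-202 and HOXA9-202, with a match in the 3' UTR, are not the longest coding transcripts of their genes and do not enter that count. No HOX gene held the longer match CGGTACG in its coding sequence or 3' UTR. TCATCTC, which contains the shorter match CATCTC, occurred in the 3' UTR of 5 of 39 HOX genes, or 12.8%, against 13.9% of tested genes. These were HOXA5, HOXA7, HOXB13, HOXC11 and HOXD13. The 39 HOX genes include members that were not tested, among them HOXB13, HOXC11 and HOXD13, so the shares cover unlike sets. A match describes the letters and does not show that a microRNA acts there.

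HMEC-1 held endothelial transcripts at high levels, and each of the 12 endothelial markers (among them EGFL7, PECAM1, ENG and CDH5) passed the filter of at least 1 TPM in at least 3 libraries. TPM are abundances per transcript length that add to 1000000 in each library, so genes can be compared with each other, but read totals and depth are unknown. In the 12 libraries 12299 to 13564 genes reached 1 TPM. Of the markers of other cells, 5 of 9 for fibroblasts and pericytes, 2 of 5 for epithelium (KRT8 at a mean of 37.3 TPM) and 1 of 6 for leukocytes (CD14 at 2.09 TPM) passed the filter. Their summed level was 26.1 to 134 TPM, 24.7 to 56.3 TPM and 1.84 to 4.16 TPM. In bulk RNA, fewer expressing cells and less RNA per cell cannot be told apart.

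Together the 39 HOX genes made up 249.9 to 308 TPM in each library, and nearly all of this came from 3 clusters. The HOXA cluster summed to a mean of 100.7 TPM over the 12 libraries (range 80.6 to 114) and the HOXD cluster to 99.7 TPM (83.2 to 118). The HOXB cluster summed to 71.7 TPM (56.6 to 87.9). The HOXC cluster reached 5.35 TPM (2.87 to 8.27), which was 1.94% of the HOX total, and its highest library lay far below the lowest library of each other cluster. Of the 39 genes, 28 passed the filter and were tested, namely 10 of 11 in HOXA, 7 of 10 in HOXB, 4 of 9 in HOXC and 7 of 9 in HOXD. The genes that did not pass were mostly those with the highest paralogue numbers and the low HOXC genes. HOXB1 was listed at 0 in every library, and HOXB2, HOXA13, HOXB13, HOXC4, HOXC5, HOXC11, HOXC12, HOXC13, HOXD12 and HOXD13 did not pass, with a highest single value of 1.08 TPM (HOXB13).

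By paralogue number, the levels peaked in the middle of the series. Paralogue 7 (HOXA7 and HOXB7) summed to a mean of 56.2 TPM, or 20.2% of the HOX total, followed by paralogue 9 with 48.8 TPM and paralogue 8 with 43.9 TPM. Paralogue 4 reached 28.3 TPM and paralogue 10 reached 24 TPM. With the most abundant transcript alone standing for each gene, paralogue 8 had 23.7 TPM, below paralogue 4 with 25.3 TPM, and paralogues 3 and 6 had 10.1 and 9.64 TPM in place of 19.7 and 16.3 TPM. Paralogues 12 and 13 summed to 0.029 and 0.392 TPM. The peak was not the same in each cluster, as the plot of levels by cluster and paralogue number shows: HOXB peaked at number 7, HOXD at 8 and 9, and HOXA had its higher levels from 7 to 10. Relatives of the same number could differ widely, and HOXD8 had a mean of 38.6 TPM where HOXB8 had 4.37 and HOXC8 had 0.912 TPM.

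**Figure D1:**
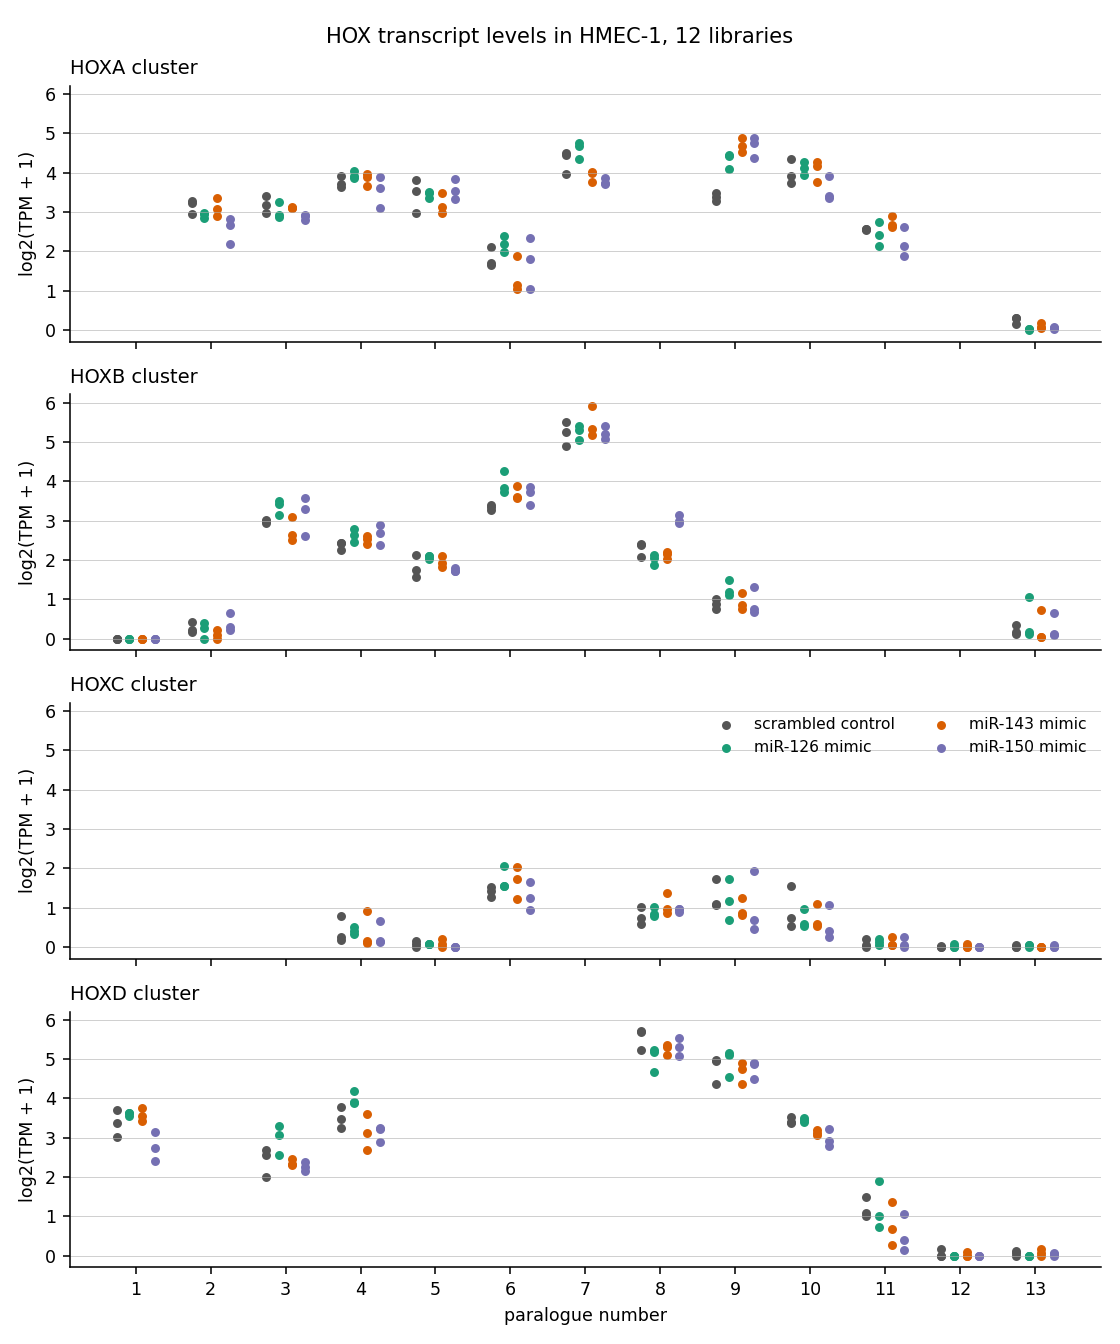
Levels of 38 of the 39 HOX genes as log2(TPM + 1) against paralogue number, a panel for each cluster and a point for each of the 12 libraries, coloured by group. HOXB7, HOXD8 and HOXD9 stand highest, no HOXC gene exceeds 3.17 TPM, and the HOXA9 controls lie under all mimic libraries.

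HOXB7 and HOXD8 headed the order, with means of 38.8 and 38.6 TPM. HOXB7 ranged from 28.9 to 59.2 TPM and HOXD8 from 24.4 to 51.8 TPM over the 12 libraries, so these neighbours in the order did not differ beyond their spread. HOXD9 followed with 26.9 TPM (19.7 to 34.6), HOXA9 with 19.6 (8.80 to 28.6) and HOXA7 with 17.3 (12 to 26.1). All of these are posterior or central genes of their clusters. The next were HOXA10 with a mean of 14.7 TPM (9.22 to 19.5), HOXA4 with 12.8 (7.54 to 15.5), HOXB6 with 11.8 (8.57 to 18.3) and HOXD4 with 10.3 (5.47 to 17.2). HOXA5, known to restrain vessel growth, had 9.85 TPM (6.88 to 13.3), HOXD1 had 9.39 (4.33 to 12.5) and HOXD10 had 8.63 (5.97 to 10.5). HOXB3 had 7.55 TPM (4.64 to 10.8), HOXA3 had 7.31 (5.94 to 9.64) and HOXA2 had 6.80 (3.53 to 9.18). The ranges of neighbours in this order overlapped throughout.

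Part of this RNA is not annotated as protein coding. Protein-coding transcripts held 37.0% of the TPM of HOXA9, 24.3% of HOXD11, 28.8% of HOXC9 and 17.1% of HOXD3. For HOXD3, a gene known to switch endothelial cells to an invasive state, the rest was mostly the processed transcript HOXD3-204, with a mean of 4.03 TPM. Many HOX genes overlap in the annotation (HOXA9 with HOXA10, HOXA3 with HOXA4 to HOXA6, HOXB3 with HOXB4 to HOXB6, HOXB7 with HOXB8 and HOXB9, HOXD3 with HOXD4, HOXD10 with HOXD11), so the assignment of reads between them is uncertain. Antisense RNAs of the clusters were not analysed here, and the strand setting of the libraries is not given in the sources used here.

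HOXA9, at 7:27162435-27175180 on the minus strand, was the HOX gene with higher RNA after each of the 3 mimics. Its level was 9.40, 10.1 and 8.80 TPM in control libraries 2, 3 and 4. After the miR-126 mimic it was 20.7, 20.3 and 16.2 TPM, after miR-143 28.6, 21.9 and 24.5 TPM, and after miR-150 26.2, 28.4 and 19.6 TPM. Every mimic library lay above every control library. The group means were 9.43 ± 0.656 TPM in controls, 19.1 ± 2.51 after miR-126, 25.0 ± 3.36 after miR-143 and 24.7 ± 4.59 after miR-150 (SD, n = 3). In limma, with all 12 libraries in one fit on the scale log2(TPM + 1) and Benjamini-Hochberg adjustment over 13750 genes, the log2 fold change was 0.94 for miR-126 (SE 0.173, adjusted p = 0.0109), 1.31 for miR-143 (SE 0.173, adjusted p = 0.00255) and 1.29 for miR-150 (SE 0.173, adjusted p = 0.00226). These 3 comparisons share the same control libraries and are not independent of each other.

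HOXA9, which carries the GGTACG match shown above, was higher after miR-126, and whether miR-126 acts at this match was not tested. The HOXA9 difference between miR-126 and the other mimics was -0.37 against miR-143 (limma adjusted p = 0.319) and -0.35 against miR-150 on the log2 scale, neither called. With libraries centred on the median gene, both differences were called (-0.56 and -0.61, limma adjusted p = 0.0408 and 0.0234). Both were also called with quantile normalization (limma adjusted p = 0.0318 and 0.0161). In limma, the HOXA9 call for miR-126 ended without control replicate 2, control replicate 4 or miR-126 replicate 2 (adjusted p up to 0.0628). It also ended when the highest transcript alone stood for the gene (log2 fold change 0.52, adjusted p = 0.107).

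The HOXA9 transcripts differed in size of change. HOXA9-206, annotated as a processed transcript and the most abundant with a mean of 9.76 TPM, had 6.44, 6.0 and 5.60 TPM in the controls and 7.96, 10.3 and 9.02 TPM after miR-126. It had 13.6, 11.7 and 10.03 TPM after miR-143 and 11.9, 13.1 and 11.6 TPM after miR-150. The protein-coding HOXA9-201 had 1.84, 3.39 and 2.36 TPM in the controls, 6.50, 5.97 and 5.25 after miR-126, 8.64, 7.39 and 10.1 after miR-143, and 7.35, 5.89 and 5.37 after miR-150. In both transcripts every mimic library exceeded every control library. The same held for the rest of the HOXA9 level, which came from its other transcripts, so the rise was not confined to HOXA9-206 and HOXA9-201. Fitted per transcript over 58341 transcripts, limma called 0 of 50 HOX transcripts after miR-126 and after miR-150, against 0.571% and 0.379% of all transcripts. At an unadjusted p under 0.05 there were 8 and 9 HOX transcripts, and the share of all transcripts at that threshold is not given here. After miR-143 1 was called, against 0.310% of all transcripts, HOXA9-201 (log2 fold change 1.48, SE 0.237, limma adjusted p = 0.0312). HOXA9-201 changed by 0.99 after miR-126 (limma adjusted p = 0.115) and by 1.04 after miR-150 (adjusted p = 0.119), which did not pass. The readthrough transcript that joins HOXA10 to HOXA9 was at 0 to 0.297 TPM.

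**Figure D2:**
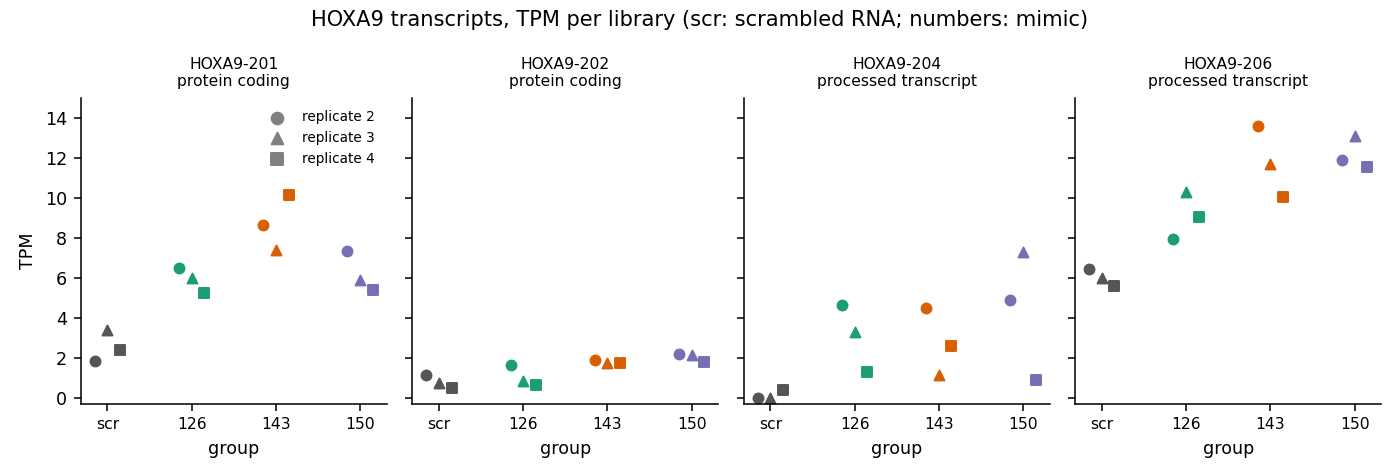
TPM of the 4 detected HOXA9 transcripts in each library by group (scr, scrambled RNA; numbers, mimic), with marker shape for the replicate number. HOXA9-201 and HOXA9-206 lie lowest in the controls, and HOXA9-204 is at 0 in controls 2 and 3 and 0.366 TPM in control 4.

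In the comparison of miR-126 with the control, 1 of 28 tested HOX genes was called (HOXA9), against 5.11% of all tested genes. The median HOX log2 fold change was 0.18, against 0.10 over all genes. The groups did not overlap for 7 HOX genes, all higher after miR-126, a share below the 34.1% of all genes. Besides HOXA9 these were HOXB3, HOXB4, HOXB6, HOXB9, HOXC6 and HOXD4.

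With the replicate number as a block, 3 HOX genes were called after miR-126, against 17.0% of all genes. HOXB6, a central gene of its cluster, had 8.57, 9.25 and 9.59 TPM in controls 2 to 4 and 12.2, 18.3 and 13.1 TPM after miR-126. The log2 fold change was 0.59 (SE 0.187, limma adjusted p = 0.0962, and 0.0367 with the replicate block). HOXD8, which carries the 3' UTR match above, had 51.8, 36.4 and 50.2 TPM in the controls and 35.2, 24.4 and 36.5 TPM after miR-126. Each miR-126 library was lower than the control of the same number, while control 3 overlapped miR-126 library 4. Its log2 difference was -0.52 (SE 0.193, limma adjusted p = 0.158, and 0.00776 with the replicate block). After the other mimics HOXD8 had 40.0, 33.1 and 38.9 TPM (miR-143) and 38.2, 33.0 and 45.3 TPM (miR-150). HOXD8-202 itself had 22.3, 15.2 and 21.3 TPM in the controls and 14.3, 8.31 and 12.6 TPM after miR-126, without overlap. It was not called after miR-126 in the fit per transcript. The rest of the HOXD8 level, from transcripts in which no GGTACG match was found, was also lower after miR-126 at each number. The 3' UTR of HOXD8-202 also holds CATCTC, a match to miR-143-3p. Whether either match bears on these levels was not tested.

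**Figure D3:**
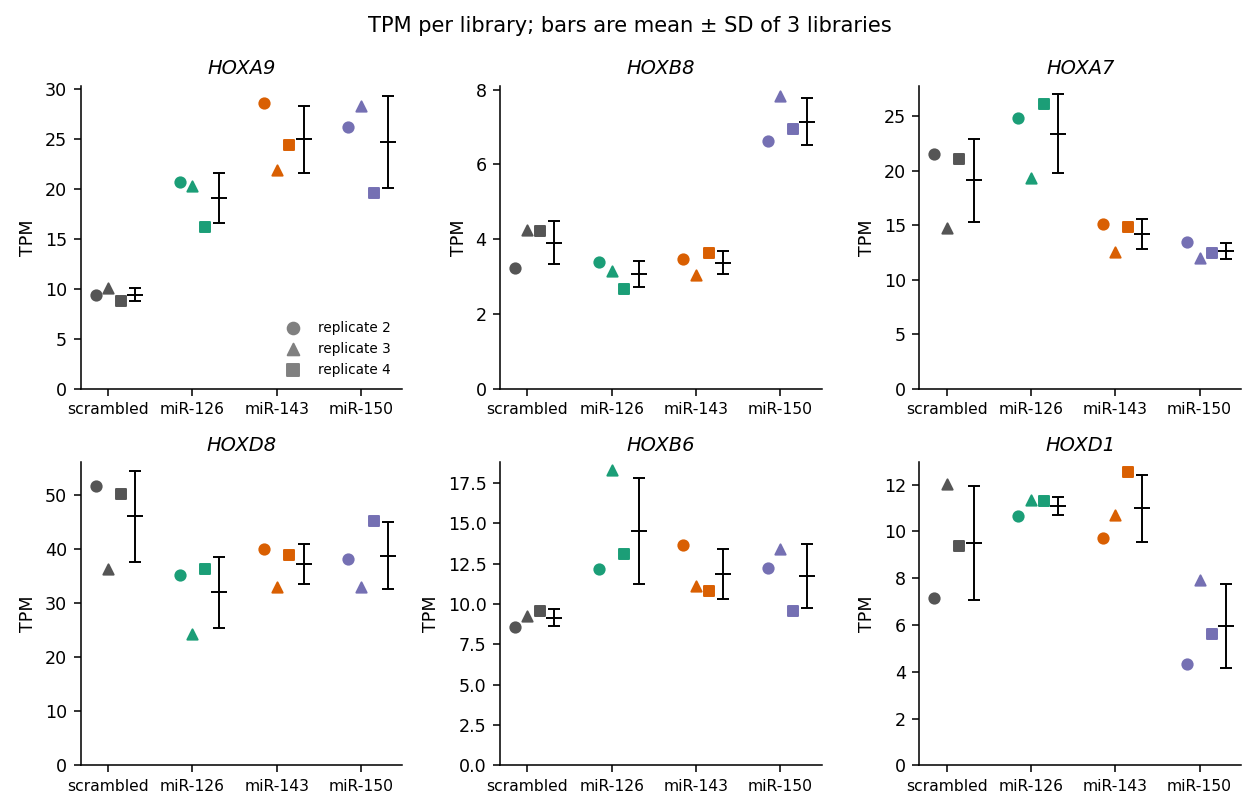
TPM per library for 6 HOX genes by group, with marker shape for the replicate number and bars for the mean ± SD of 3 libraries. HOXA9 is lowest in the controls, HOXB8 is highest after miR-150, and HOXD8 is lowest in replicate 3 of every group.

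After the miR-143 mimic 1 of 28 HOX genes was called (HOXA9), against 3.32% of all genes. The median HOX log2 fold change was -0.05, against -0.04 over all genes. The groups did not overlap for 5 HOX genes, against 25.3% of all genes: 4 were higher, among them HOXA9, HOXA11 and HOXB6, and HOXD10 was lower. HOXA7, whose 3' UTR holds the TCATCTC match, had 21.6, 14.8 and 21.0 TPM in the controls and 15.1, 12.6 and 14.9 TPM after miR-143. The groups overlapped, and the log2 difference of -0.39 (SE 0.177) did not pass. HOXA5, with the same match, had 10.6, 13 and 6.88 TPM in the controls and 7.79, 10.3 and 6.90 TPM after miR-143, which also overlapped.

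After the miR-150 mimic 2 of 28 HOX genes were called, both higher, HOXA9 and HOXB8, against 3.32% of all genes. HOXB8, at 17:48611377-48614939 on the minus strand and known from blood progenitors and limb patterning, had 3.24, 4.26 and 4.22 TPM in the controls. It had 6.63, 7.84 and 6.95 TPM after miR-150, so the groups did not overlap. The log2 fold change was 0.73 (SE 0.168, limma adjusted p = 0.0385). After miR-126 its level was 3.39, 3.14 and 2.68 TPM and after miR-143 3.47, 3.04 and 3.62 TPM, and both groups overlapped the controls. The HOXB8 call against the control ended when any of the 6 libraries was left out (limma adjusted p up to 0.175). It also ended when all genes were tested without a filter, with the highest transcript alone and in the fit of the 2 groups alone. Without the 2 libraries that favour short transcripts (miR-143 and miR-150 replicate 4) the call ended as well.

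The summed epithelial markers, nearly all KRT8, were 24.7 to 35.4 TPM in the controls and 45.7 to 56.3 TPM after miR-150, while CDH1, KRT5 and KRT14 stayed below 1 TPM in every library. The part of this difference in the HOX values was not tested.

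The median HOX log2 fold change after miR-150 was -0.15, against -0.11 over all genes, and 9 of 28 genes had a positive one. The groups did not overlap for 7 HOX genes, against 21.5% of all genes. HOXA9 and HOXB8 were the higher ones, and HOXA2, HOXA3, HOXA7, HOXD4 and HOXD10 were lower without passing the test. HOXA7 had 13.5, 12 and 12.4 TPM after miR-150 (log2 difference -0.54, SE 0.177, limma adjusted p = 0.127). HOXD10, a brake on angiogenic activation in endothelial cells, had 9.64, 10.5 and 9.34 TPM in the controls and 6.61, 8.39 and 5.97 TPM after miR-150 (log2 difference -0.45, SE 0.154, limma adjusted p = 0.153). HOXA2, a hindbrain and neural crest gene, had 8.78, 6.76 and 8.32 TPM in the controls and 6.05, 5.32 and 3.53 TPM after miR-150. The lowest HOXA2 value came from miR-150 replicate 4. In this library the deviation of each gene from its own mean over the 12 libraries fell with transcript length. The Spearman correlation across genes was -0.50, against -0.37 in miR-143 replicate 4 and -0.018 to 0.27 in the other 10. This library also had its HOX genes 0.27 below their means on the log2 scale. The low level was not particular to HOX genes. With this library left out, the median over all genes after miR-150 moved from -0.11 to 0.02, and the HOX median from -0.15 to -0.10. The part of this library in the HOXA2 value was not tested.

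**Figure D4:**
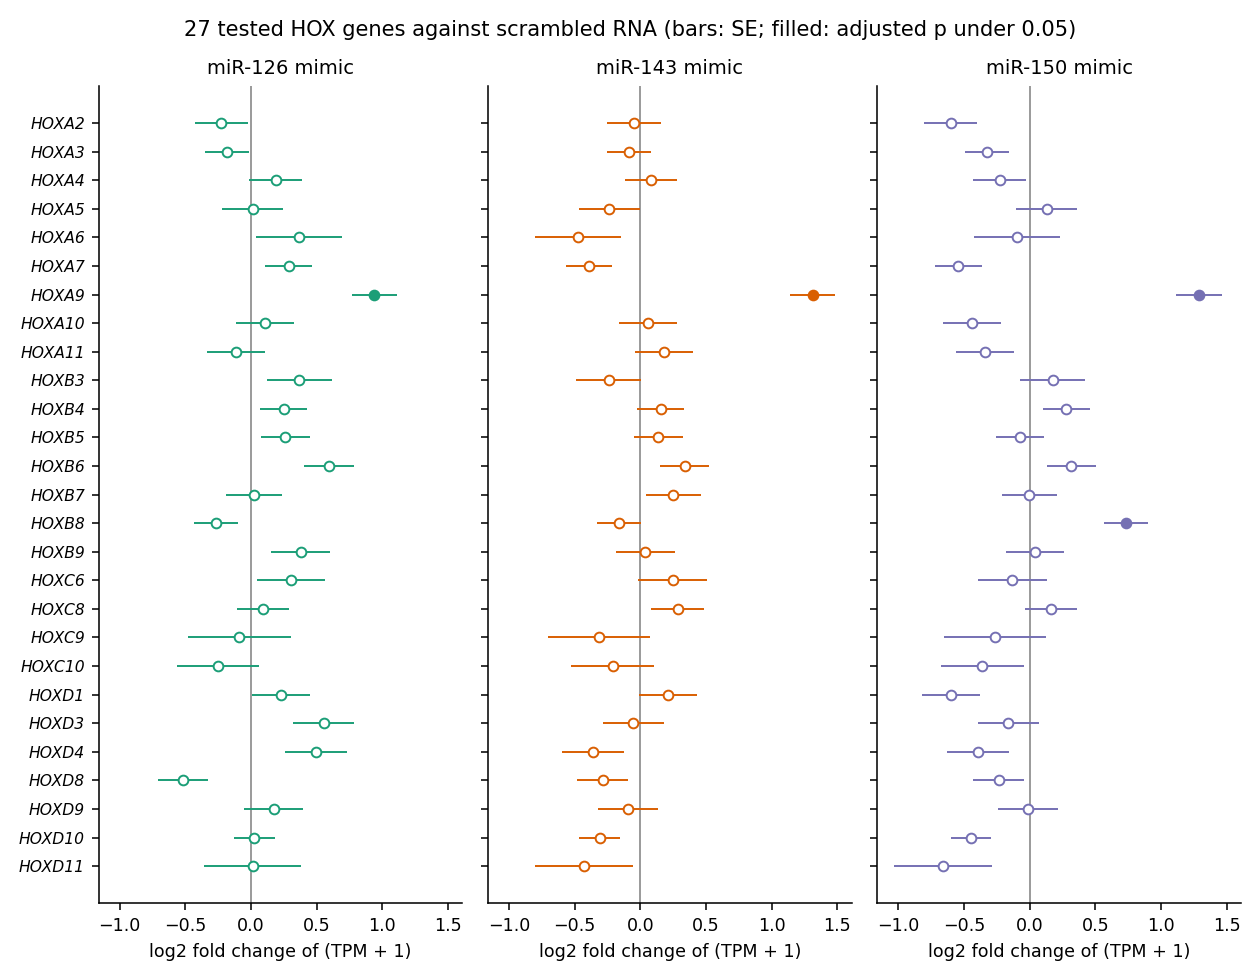
Log2 fold change of (TPM + 1) with its SE for 27 of the 28 tested HOX genes, a panel per mimic against scrambled RNA; filled points have a limma adjusted p under 0.05. HOXA9 is filled in all 3 panels and HOXB8 in the miR-150 panel, and the other points lie between -0.66 and 0.59.

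Among the mimics, miR-126 and miR-150 differed in 2 of 28 HOX genes, against 3.91% of all genes. HOXB8 was lower after miR-126 than after miR-150 (log2 difference -1.0, SE 0.168, limma adjusted p = 0.0095). HOXA7 was higher after miR-126, with 24.8, 19.3 and 26.1 TPM against 13.5, 12 and 12.4 TPM after miR-150 (log2 difference 0.83, SE 0.177, limma adjusted p = 0.0272). The HOXA7 call ended when libraries were centred on the median gene or quantile normalised, and when the trend with transcript length was removed. It also ended in the fit of the 2 groups alone, and without miR-126 replicate 2, miR-126 replicate 4 or miR-150 replicate 2. The HOXB8 call ended without miR-126 replicate 4 (limma adjusted p = 0.0562) and in the fit of the 2 groups alone (limma adjusted p = 0.13). The median over all genes in this comparison was itself 0.22, and the median HOX gene was at 0.25. Relative to the median gene the split of 1 higher and 1 lower HOX gene became 0 higher and 2 lower, HOXA9 and HOXB8.

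The groups miR-126 and miR-150 did not overlap for 9 HOX genes, 8 of them higher after miR-126, against 25.9% of all genes. With the replicate number as a block 8 HOX genes were called, 7 of them higher after miR-126, against 18.9% of all genes. Most called genes went the same way: 2178 of the 2599 were higher after miR-126. The median log2 difference over all genes was 0.22. HOXD4 had 17.2, 14.1 and 13.8 TPM after miR-126 and 8.42, 8.25 and 6.37 TPM after miR-150 (log2 difference 0.89, limma adjusted p = 0.0592, and 0.00864 with the replicate block). HOXD1, the most anterior HOXD gene, had 10.7, 11.3 and 11.3 TPM after miR-126 and 4.33, 7.91 and 5.63 TPM after miR-150 (log2 difference 0.83, limma adjusted p = 0.0615, and 0.00978 with the block). HOXD4 and HOXD1 did not overlap between these groups. The other genes called with the block were HOXA10, HOXD3, HOXD10 and HOXD11, at log2 differences of 0.55, 0.72, 0.47 and 0.67.

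Between miR-143 and miR-150, 1 of 28 HOX genes was called, against 2.19% of all genes. It was HOXB8, lower after miR-143 (log2 difference -0.89, SE 0.168, limma adjusted p = 0.0189). This call ended without any 1 of miR-143 replicates 2, 3 and 4 and miR-150 replicates 2 and 3 (limma adjusted p up to 0.0742). It also ended in the fit of the 2 groups alone and with the highest transcript alone (limma adjusted p up to 0.267). HOXD1 had 9.71, 10.7 and 12.5 TPM after miR-143, above each miR-150 library (log2 difference 0.81, limma adjusted p = 0.0987, and 0.0151 with the replicate block, which called 2 HOX genes against 9.75% of all genes). The groups did not overlap for 5 HOX genes, against 15.1% of all genes. Between miR-126 and miR-143, limma called 0 of 28 HOX genes, against 2.52% of all genes. At an unadjusted p under 0.05 there were 5, and the share of all genes at that threshold is not given here. With the replicate block 2 were called, against 11.0% of all genes, HOXA7 (0.68, limma adjusted p = 0.00646) and HOXD4 (0.85, limma adjusted p = 0.013), both higher after miR-126. The groups did not overlap for 7 HOX genes, against 25.4%. The mimic-to-mimic comparisons reuse the libraries of the control comparisons.

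Replicate number was a further axis of difference among the HOX genes, in a comparison added after the values were seen. With group and number in the model, 10 of 28 HOX genes differed between the 4 libraries numbered 3 and the 8 numbered 2 or 4, against 26.4% of all genes. Of these, 6 were higher in number 3, among them HOXA10, HOXB9, HOXC9, HOXC10 and HOXD11, by 0.37 to 0.81 on the log2 scale. HOXA7, HOXB7, HOXD8 and HOXD9 were lower. HOXD9 had 19.8 TPM in control 3 against 30.3 and 29.7 in controls 2 and 4, and 22.5, 19.7 and 21.4 TPM in the number 3 libraries of the mimic groups in turn, each the lowest of its group. Its log2 difference was -0.50 (SE 0.0686, limma adjusted p = 0.000771). HOXC9 had 2.32 TPM in control 3 against 1.08 and 1.12, and 2.80 TPM in miR-150 library 3 against 0.366 and 0.626. HOXC8 and HOXC10 passed the filter through number 3 libraries alone, so the filter itself favoured a higher level in number 3 for them. HOXC10, which is in the counts above and among the 11 genes below, therefore adds no support for a difference. HOXC8 was not called (limma adjusted p = 0.127). Calls fell to 5, 4, 5 and 6 when the control, miR-126, miR-143 or miR-150 libraries were left out. For 11 HOX genes number 3 lay outside both other libraries in the same direction in all 4 groups, against 28.3% of all genes.

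The number 3 libraries also differed in markers. The summed fibroblast and pericyte markers were 26.1 to 29.5 TPM in number 3 libraries, 46.8 to 113 in number 2 and 37.3 to 134 in number 4. Of the tested members, COL1A2 and COL1A1 were called lower in number 3 (log2 differences -2.53 and -1.40). RGS5, CSPG4 and PDGFRB were not called (-0.17, -0.16 and -0.16), so the sum mostly follows the 2 collagen genes. The endothelial markers summed to 1731 to 2271 TPM in number 3, 2395 to 3139 in number 2 and 2333 to 3092 in number 4. What the number marks is not stated in the labels, and the part of these differences in the HOX values was not tested.

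**Figure D5:**
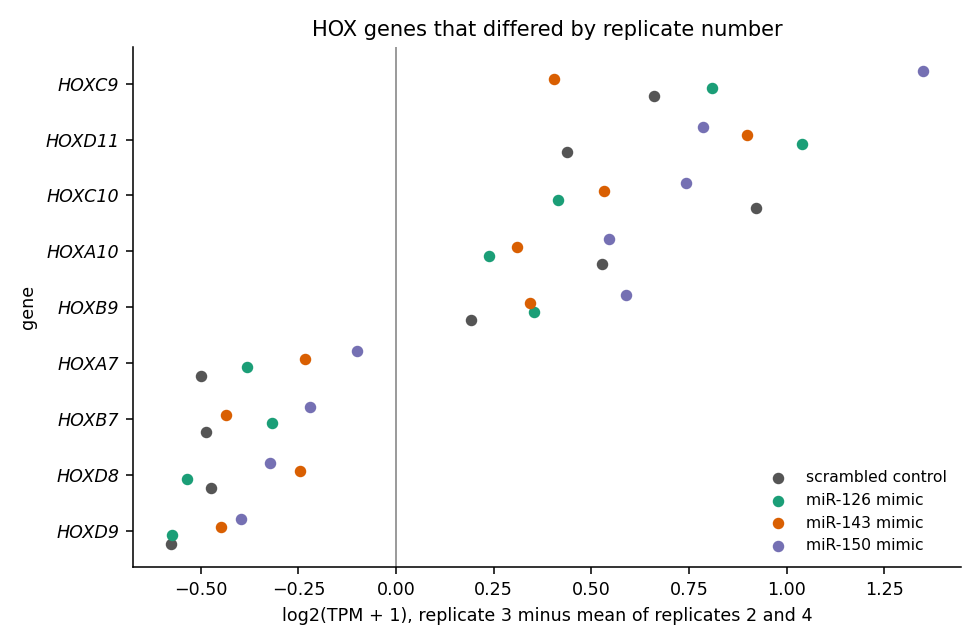
Difference in log2(TPM + 1) between replicate 3 and the mean of replicates 2 and 4, a point for each group, for 9 of the 10 HOX genes that differed by replicate number. All 4 groups lie on the same side of 0 for each of these genes. HOXC10 passed the filter through replicate 3 libraries alone, which favours a difference to the right.

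HOX proteins bind DNA together with TALE cofactors of the PBX, MEIS and PKNOX families. Of 9 listed cofactors 7 were tested, and the most abundant were PBX2 (mean 71.0 TPM), PBX3 (30.1), MEIS2 (23.4) and PKNOX1 (17.7). In limma 0 of 7 were called in each control comparison, against 5.11%, 3.32% and 3.32% of all genes after miR-126, miR-143 and miR-150. At an unadjusted p under 0.05 there was 1 in each, a threshold for which no share of all genes is given. With the replicate block 1 was higher after miR-126, against 17.0% of all genes called. Their median log2 fold changes were 0.25, 0.21 and -0.05 after miR-126, miR-143 and miR-150, against 0.10, -0.04 and -0.11 over all genes. PBX2 was higher after miR-126 (98.2, 90.1 and 80.4 TPM) than after miR-150 (61.0, 62.4 and 35.6 TPM), with a log2 difference of 0.79 (SE 0.192, limma adjusted p = 0.0459), the 1 of 7 called, against 3.91% of all genes. The lowest of these values came from miR-150 replicate 4, a library that favours short transcripts. The median over all genes in this comparison was 0.22.

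Polycomb proteins keep HOX clusters silent and trithorax proteins keep them active. All 41 listed regulators were tested, with RBBP7, RBBP4, DPY30 and PHF19 the most abundant at means of 241, 171, 148 and 137 TPM. After miR-126, 2 of 41 were higher, against 5.11% of all genes called in either direction: CBX6, a Polycomb complex subunit, rose from 11.4, 9.72 and 9.36 TPM to 30.1, 21.1 and 25.1 TPM (log2 fold change 1.24, limma adjusted p = 0.00596), and JARID2, a cofactor of the methylating Polycomb complex, from 3.76, 4.18 and 3.78 TPM to 9.86, 8.91 and 9.45 TPM (1.08, limma adjusted p = 0.0135). With the replicate block 9 of 41 were higher and 1 was lower after miR-126, against 17.0% of all genes called. After miR-143 limma called 0, against 3.32% of all genes. At an unadjusted p under 0.05 there were 10, and without the share of all genes at that threshold this count cannot be judged. After miR-150 PHF19, a chromatin reader of the same complex, was lower (-0.49, limma adjusted p = 0.0154), the 1 called of 41, against 3.32% of all genes. Between miR-126 and miR-150, 3 were higher after miR-126, CBX6, PHC2 and PHF19, against 3.91% of all genes called, and 10 with the replicate block, against 18.9%. The median regulator changed by 0.14, -0.09 and -0.08 on the log2 scale after miR-126, miR-143 and miR-150, near the medians of all genes given above.

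Of 13 listed genes that flank the clusters 9 were tested. In limma 1 was called after miR-126 and 1 between miR-143 and miR-150, against 5.11% and 2.19% of all genes. LNPK, beside the HOXD cluster, had 24.1, 24.6 and 28.1 TPM in the controls and 12, 8.91 and 9.31 TPM after miR-126 (log2 difference -1.27, limma adjusted p = 0.0371). MTX2, also beside HOXD, was higher after miR-143 than after miR-150 (0.55, limma adjusted p = 0.022). The most abundant flanking genes, SNF8, CALCOCO2, CBX5 and CALCOCO1 (means 160.4, 109.9, 74.4 and 70.6 TPM), were not called in any comparison in limma without the block.

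A list of 17 genes reported to respond to HOX proteins in endothelial cells had 15 tested members. Like the other lists, it was chosen with earlier results of these data known. Its counts and medians therefore describe the listed genes and are no test of a shared change. In limma 3 of 15 were lower after miR-126, 2 after miR-143 and 2 after miR-150. The shares of all genes called in either direction were 5.11%, 3.32% and 3.32%. Of the 15 genes, 0 were called higher than in the controls. At an unadjusted p under 0.05, 2, 1 and 0 were higher, and the share of all genes at that threshold is not given. With the replicate block 2 were higher and 7 lower after miR-126, against 17.0% of all genes called. The median log2 differences were -0.32, -0.43 and -0.65 after miR-126, miR-143 and miR-150, against 0.10, -0.04 and -0.11 over all genes. MMP14, a membrane protease linked to HOXA3, had 304, 311 and 327 TPM in the controls and 76.8, 90.3 and 67.6 TPM after miR-126. It had 161, 173 and 142 TPM after miR-143 and 75.5, 101.4 and 63.2 TPM after miR-150. Its log2 differences were -2.00, -0.98 and -1.99, all called. PLAU, the urokinase protease linked to HOXD3, was lower after miR-143 (-0.87, limma adjusted p = 0.0315) and miR-150 (-0.81, limma adjusted p = 0.0417). NOS3, linked to HOXA9, had 30.8, 29 and 29 TPM in the controls and 20.1, 19.8 and 16.9 TPM after miR-126 (log2 difference -0.62, limma adjusted p = 0.0152), where HOXA9 itself was higher. ITGAV, an integrin chain linked to HOXD3, had 88.8, 89.4 and 122 TPM in the controls and 26.5, 23.7 and 22.7 TPM after miR-126 (log2 difference -1.98, limma adjusted p = 0.0208). ITGB1, ITGA5 and EPHB4, with means of 775, 510 and 123 TPM, were not called against the control.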

How the data were processed

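RNA sequencing of 12 HMEC-1 libraries was analysed from the deposited table, in which the authors gave TPM per transcript. The submitters' processing notes name FastQC, kallisto, sleuth and GRCh38; on versions, annotation and filters nothing is given in the sources used here. TPM hold no read totals, so depth is unknown and the spread among libraries set the precision. TPM of 187626 transcripts were summed per symbol (171 transcripts without a gene left out), and 90.58% of transcripts were found in GENCODE 29. Genes that reached 1 TPM in 3 or more libraries were fitted as log2(TPM + 1) in limma 3.58.1 (R 4.3.3) by group, with a mean-variance trend, and adjusted by Benjamini-Hochberg at 0.05, two-sided. This scale understates changes of low genes. The median residual SD was 0.274 (8 df; 0.259 for HOX genes). On simulated data 54 to 60 of 100 changes of 1 and 93 of 100 changes of 2 were recovered, with 13 to 16 false calls among 13750 genes. Every HOX gene called or with a mean of at least 5 TPM was named, with called and the 4 most abundant members of other lists. The members and lists were chosen with earlier results of these data known. A list of 19 antisense and long noncoding RNAs was not analysed here. In the counts, 1 HOX gene is included that is not reported by name or drawn. Same-numbered libraries deviated together, with correlations of 0.29 to 0.63 for miR-126 against the control and 0.28 to 0.74 among mimics, so the replicate block is given there.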

Additional observations from a re-analysis of the deposited data

How the results depend on the processing

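None of the 7 called HOX differences reversed in any alternative. HOX medians near 0 changed sign with the setting, from -0.06 to 0.04 for miR-143 and -0.21 to 0.00 for miR-150 against the control, -0.14 to 0.14 for miR-126 against miR-143 and -0.03 to 0.40 for miR-126 against miR-150. The uncalled HOXA9 difference between miR-143 and miR-150 ranged from -0.13 to 0.32. HOXA9 after miR-143 was called in all 13 alternatives and 6 fits that left out 1 library, and after miR-150 in all but the fit of the 2 groups alone (adjusted p = 0.0603). Counts of called HOX genes follow. For miR-126 against the control (1) they were 2 without a filter, which added HOXA13 as lower, 0 with the highest transcript, 2 without miR-143 and miR-150 replicate 4 and 0 to 1 with 1 library left out. For miR-150 against the control (2) they were 1 without a filter, 0 with the 2 groups alone, 1 with the highest transcript, 1 without those 2 libraries and 1 to 1 with 1 library left out. For miR-126 against miR-143 (0) they were 1 with centring and 1 with quantile normalization, in both HOXA9 as lower. For miR-126 against miR-150 (2) they were 0 with the 2 groups alone, 1 with the length trend removed and 0 to 3 with 1 library left out. For miR-143 against miR-150 (1) they were 0 with the 2 groups alone, 0 with the highest transcript and 0 to 1 with 1 library left out. For replicate number 3 (10) they were 6 with the highest transcript, 7 with protein-coding transcripts alone (3 higher and 4 lower) and 5, 4, 5 and 6 without the control, miR-126, miR-143 and miR-150 libraries. Cluster sums with the highest transcript alone were 72.3, 56.6 and 78.8 TPM for HOXA, HOXB and HOXD. The causes were not tested.

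With the replicate block the counts were 3 for miR-126, 1 for miR-143 (12.9% of all genes) and 6 for miR-150 (12.3% of all genes) against the control, and 2, 8 and 2 among the mimics (miR-126 against miR-143, miR-126 against miR-150, miR-143 against miR-150). For miR-143 and miR-150 against the control the numbers did not meet the rule for pairing (lowest correlations 0.044 and 0.073), and 1 of 3 libraries correlated best with its own number in each; the added miR-150 genes were HOXA2, HOXA7, HOXD1 and HOXD10, all lower.

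Over all genes tested under each setting, called counts ranged from 563 to 2331 for miR-126, 266 to 1775 for miR-143 and 57 to 1694 for miR-150 against the control, and from 187 to 1515, 19 to 2599 and 4 to 1340 among the mimics. With 1 library left out they were 214 to 472, 139 to 339 and 125 to 553 against the control, and 77 to 183, 117 to 717 and 127 to 353 among the mimics. The length trend removed, protein-coding transcripts alone, the fit per transcript and all alternatives for replicate number 3 were chosen after seeing the data. Precision rests on 3 libraries a group.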
